A study of Mus musculus with 14 samples.

Results

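The IL-6 and oncostatin M axis was described here by 8 genes: the ligands Il6, Osm and Lif, the receptor chains Il6ra, Osmr and Il6st, the transcription factor Stat3 and its feedback inhibitor Socs3. They were taken by symbol from both deposited tables, were all among the 12924 genes of each table, and all 8 passed the filter on low values in each comparison. The libraries came from Lewis lung carcinoma (LLC) tumors, a transplantable mouse lung cancer line, grown for 14 days in the flanks of C57BL/6 mice that were wild type (WT) or p110g-/-, the latter without PI3K gamma, the leukocyte-enriched lipid kinase subunit encoded by Pik3cg. RNA was taken from 30 mg of whole tumor (3 WT and 3 p110g-/- libraries) or from 1000000 sorted CD11b+Gr1- cells, called tumor-associated macrophages (TAM) in the labels (4 WT and 4 p110g-/- libraries). The labels name the deletion with no promoter or Cre, and it is a property of the host mice, not of the LLC cells inoculated into both genotypes. The labels do not state whether libraries of a group stem from different animals. The p-values therefore describe variation among these libraries, part or all of which may be technical.

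IL-6 binds its own receptor chain, encoded by Il6ra, on the cell surface or in soluble form, and the pair then engages gp130, encoded by Il6st, which starts signalling. Oncostatin M, a cytokine made mainly by macrophages, neutrophils and T cells, and leukemia inhibitory factor (Lif) signal through the same gp130 chain paired with the chains encoded by Osmr or Lifr. Janus kinases bound to these chains phosphorylate STAT3, which turns on target genes that include Socs3, and the SOCS3 protein binds gp130 and the kinases and damps the signal. In tumors, Il6ra is largely a gene of leukocytes, whereas Osmr is prominent on fibroblasts, endothelium and epithelial tumor cells.

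In whole tumors, Osm fell in p110g-/- mice to 0.457 of the WT mean and Il6st rose to 1.19 times the WT mean. These were 2 of the 8 genes called, beside 4.35% of all genes tested in that comparison, and 5 of 8 (Il6ra, Il6st, Osm, Osmr and Stat3) had an unadjusted p under 0.05, beside 26.2% of all genes. In TAM none of the 8 was called by limma, 1 of 8 (Socs3) had an unadjusted p under 0.05 (5.87% of all genes), and 0.112% of all genes were called. A fit that keeps the number shared by TAM libraries as a block also called 0 of 8, where 2.5% of all genes were called. The 2 genotypes did not overlap for 1 of 8 genes in TAM (Socs3), beside 4.3% of all genes. In tumors they did not overlap for 4 of 8 (Osm lower, and Il6ra, Il6st and Stat3 higher, in p110g-/-), beside 31.0% of all genes, so groups without overlap were common in that table. For the effect in TAM minus that in tumor, 0 of 8 were called by limma (0.145% of all genes), and 2 of 8 (Osm and Socs3) had an unadjusted p under 0.05 (6.49% of all genes).

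Depth was 19.7 to 40.7 M estimated reads per TAM library and 32.1 to 44.6 M per tumor library, so that a gene with 3 reads would show 1.79 to 5.81 normalized counts, with only counting error considered. The values, called normalized counts here, are read counts that had been scaled per library and rounded before deposit, and fold changes are on the log2(normalized count + 1) scale. Pik3cg was lower in every p110g-/- library than in every WT library of its table (log2 fold change −1.02 in TAM and −0.83 in tumors). All 10 macrophage markers, among them Cd68, Csf1r and C1qa, were present in every library, at a summed 9263 to 12581 counts per 1000000 (CPM) in TAM and 1945 to 3125 in tumors. The TAM libraries differed widely in markers of fibroblasts, whose sum ran from 21.3 to 1572 CPM. Library 1 was the lowest of both genotypes for these markers, and WT TAM library 1 also stood apart from the other 3 WT TAM libraries for several genes of the axis. For Osm, Il6, Osmr, Cish, Socs2 and Vegfa the estimates in TAM are given with and without it. The small estimates of Il6ra, Il6st, Lif and Stat3 in TAM changed sign when certain single libraries were left out, as given at the end.

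**Figure D1:**
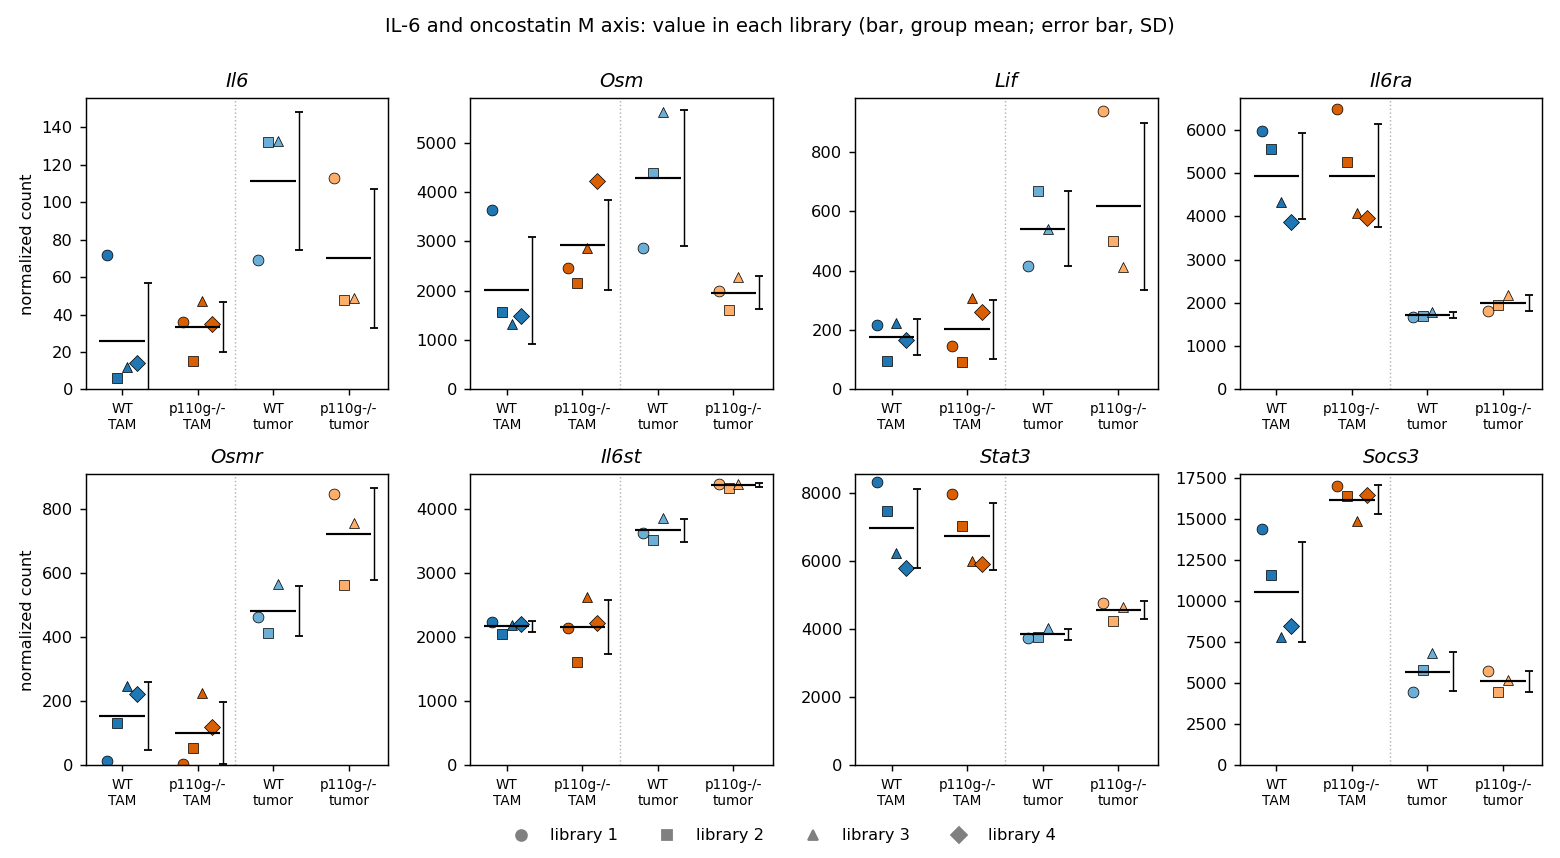
Each panel plots 1 gene as normalized counts (linear axis from 0) in the 4 groups. Points are libraries with the shape giving the library number, horizontal bars are group means and error bars are SD, drawn from 0 upward where the SD exceeds the mean (Il6 in WT TAM). Osm in tumors separates into 2871 to 5615 in WT and 1607 to 2272 in p110g-/-, and Il6 and Osm in WT TAM each have 1 high library.

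Osm (gene 18413), the ligand of the OSM receptor, was the member with the largest called change. WT tumors 1 to 3 held 2871, 4387 and 5615 normalized counts, and p110g-/- tumors held 2001, 1607 and 2272. All 3 p110g-/- tumors were below the lowest WT tumor. The mean went from 4291 ± 1375 to 1960 ± 334 (SD, n = 3 each), a log2 fold change of −1.09 (SE 0.23, 95% interval −1.63 to −0.56, limma adjusted p = 0.0436). In a bulk sample, fewer cells of a type and less RNA per cell cannot be told apart. Sums of markers of cell types that make Osm are given beside it. The macrophage markers summed to 1945 to 2562 CPM in WT and 2296 to 3125 in p110g-/- tumors (9 of 10 with a higher mean, 0 called). The 7 measured neutrophil markers summed to 264 to 391 and 275 to 466 (6 of 7 higher, 0 called). T cell markers were higher (7 of 7, 4 called), at 4.40 to 11.2 CPM in WT and 19.7 to 25.9 in p110g-/- tumors. None of these markers was at 0 in a tumor library. The part of these cells in the Osm values was not tested. In WT, Osm took 59.2 CPM in TAM against 157 in tumors, though the tables were normalized separately. Set against the mean log2 level of the macrophage markers, Osm was lower by a log2 difference of −1.24, and 3 against 3 libraries reached the smallest p possible (exact two-sided permutation test, p = 0.1, adjusted p = 0.4 over 16 such comparisons). The call for Osm was lost without WT tumor 2 (limma adjusted p = 0.138), WT tumor 3 (0.0945), p110g-/- tumor 2 (0.139) or p110g-/- tumor 3 (0.10), while the log2 fold change stayed between −1.35 and −0.87 with any 1 library left out. It was also lost in a limma fit with no trend (adjusted p = 0.0943) and in a fit over all 14 libraries (0.490).

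In TAM, no change of Osm was called. WT TAM 1 to 4 held 3638, 1561, 1332 and 1496 normalized counts, and p110g-/- TAM held 2452, 2157, 2860 and 4232. WT TAM 1 lay far above the other 3 WT libraries and above 3 of the 4 p110g-/- libraries, so the groups overlapped, and 3 of the 4 same-numbered pairs had the higher value in p110g-/-. The log2 fold change was 0.62 (SE 0.34, 95% interval −0.15 to 1.40, limma adjusted p = 0.999, or 0.338 with the block). Without WT TAM 1 it was 0.95 (SE 0.22, limma adjusted p = 0.183). With library weights estimated by limma it was 1.27 and called (adjusted p = 0.00508). Library weights raised the calls over all genes several times or more in every comparison, as given at the end. A call with weights is to be read beside that rise. The effect in TAM minus that in tumor was 1.72 for Osm (SE 0.49, 95% interval 0.65 to 2.78, limma adjusted p = 0.326). That difference had an adjusted p of 0.0716 with the block in TAM and was called without WT TAM 1 (2.05, limma adjusted p = 0.0497), so its call turned on that library.

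Il6 (gene 16193), the name-giving cytokine of the family, was the lowest of the 8 genes in TAM. WT TAM 1 to 4 held 72, 6, 12 and 14 normalized counts, and p110g-/- TAM held 36, 15, 47 and 35. WT TAM 1 was the highest of all 8 libraries. The other 3 WT libraries were below all 4 p110g-/- libraries, at the closest by 14 against 15 normalized counts. The 6 counts of WT TAM 2 are close to what a few reads give at this depth. With all libraries, the log2 fold change was 0.84 (SE 0.73, limma adjusted p = 0.999), and without WT TAM 1 it was 1.52 (SE 0.51, limma adjusted p = 0.407). With library weights, which called many more genes over all, it was 1.47 and called (adjusted p = 0.0353). WT tumors held 69, 132 and 133 normalized counts of Il6, and p110g-/- tumors 113, 48 and 49. The groups overlapped, since WT tumor 1 was lower than p110g-/- tumor 1. The log2 fold change in tumors was −0.72 (SE 0.38, limma adjusted p = 0.275), and without p110g-/- tumor 1 it was −1.12 and called (limma adjusted p = 0.0481). Without that library 2001 genes were called in all, against 553 with every tumor. The effect in TAM minus that in tumor was 1.56 (SE 0.96, limma adjusted p = 0.958).

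Lif (gene 16878), whose product signals through gp130 and the LIF receptor, showed no separation. WT TAM held 218, 95, 225 and 168 normalized counts and p110g-/- TAM 146, 93, 309 and 262. WT tumors held 415, 668 and 540 and p110g-/- tumors 939, 500 and 413. In both tables the genotypes overlapped, and p110g-/- tumor 1 held the highest value of any tumor. The log2 fold changes were 0.12 in TAM (SE 0.43, 95% interval −0.87 to 1.11) and 0.12 in tumors (SE 0.30, 95% interval −0.57 to 0.82). Lif and Osm are neighbours in the RefSeq gene order, and in tumors the neighbour of the called Osm had an adjusted p of 0.824.

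The promoters of the ligands are shown because Il6 and Lif are classic targets of inflammatory transcription factors, and the letters allow their motifs to be placed. The 250 bases before each start site are given from RefSeq (GRCm38.p6) for Il6 at chr5:30012864-30013113, plus strand, and for Lif at chr11:4257318-4257567, plus strand, each 5′ to 3′. Capitals mark the matches.
Il6 promoter: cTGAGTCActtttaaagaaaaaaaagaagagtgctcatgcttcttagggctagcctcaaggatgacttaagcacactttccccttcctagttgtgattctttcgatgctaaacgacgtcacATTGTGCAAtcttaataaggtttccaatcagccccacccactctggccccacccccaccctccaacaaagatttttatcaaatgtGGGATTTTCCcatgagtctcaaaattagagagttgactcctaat
Lif promoter: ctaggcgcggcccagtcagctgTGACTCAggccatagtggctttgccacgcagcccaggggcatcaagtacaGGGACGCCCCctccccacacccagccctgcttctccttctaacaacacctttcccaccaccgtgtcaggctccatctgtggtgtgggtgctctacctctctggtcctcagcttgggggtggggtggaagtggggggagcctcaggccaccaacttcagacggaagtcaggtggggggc
In Il6 the capitals mark, in order, an AP-1 match (TGANTCA, at the far end of the window from the start site), a C/EBP match on the minus strand (TTGCNNAAT, −129) and an NF-kB match (GGGATTTTCC, −44). In Lif they mark an AP-1 match (−228) and an NF-kB match (GGGACGCCCC, −178). Both strands were searched in the 250 bases before and 50 after the start, and no 2 matches overlapped. Of 32544 distinct mouse promoters of that length, 7.79% held the AP-1 letters, 8.49% the NF-kB consensus and 2.41% the C/EBP letters. A match describes the letters only.

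Of the receptor chains Il6ra, Il6st and Osmr, only Il6ra (gene 16194), the IL-6 binding chain, had more RNA in TAM than in whole tumors. It took 146 CPM in WT TAM against 62.9 in WT tumors, a ratio of 2.32, and 142 against 75.0 in p110g-/-, a ratio of 1.90. The tables were normalized separately, and no test was made across them. WT TAM held 5975, 5549, 4339 and 3859 normalized counts and p110g-/- TAM 6486, 5248, 4066 and 3951. Values in TAM went with the library number and overlapped between genotypes (log2 fold change −0.01, SE 0.20, 95% interval −0.46 to 0.45). WT tumors held 1674, 1699 and 1792, and p110g-/- tumors 1823, 1961 and 2183. All p110g-/- tumors were above all WT tumors, and the log2 fold change of 0.20 (SE 0.07) missed the threshold (limma adjusted p = 0.128) except without p110g-/- tumor 1 (adjusted p = 0.0348) and with library weights (0.0287). Both of these settings called several times as many genes over all as the main fit.

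Il6st (gene 16195), which encodes the shared chain gp130, rose in tumors and was not called in TAM. WT tumors held 3629, 3515 and 3866 normalized counts, and p110g-/- tumors 4395, 4336 and 4390. The p110g-/- tumors lay close to each other and above every WT tumor. The log2 fold change was 0.25 (SE 0.05, 95% interval 0.14 to 0.37, limma adjusted p = 0.0351). The call was lost without WT tumor 1 (limma adjusted p = 0.120), WT tumor 2 (0.134), WT tumor 3 (0.0567), p110g-/- tumor 2 (0.110) or p110g-/- tumor 3 (0.108), with a log2 fold change of 0.22 to 0.29 throughout. It was also lost in a limma fit with no trend (adjusted p = 0.0799) and in a fit over all 14 libraries (0.776). WT TAM held 2231, 2044, 2199 and 2204 normalized counts and p110g-/- TAM 2149, 1608, 2634 and 2226. The WT libraries lay inside the p110g-/- range, with a log2 fold change of −0.03 (SE 0.14, 95% interval −0.35 to 0.29).

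Osmr (gene 18414), the chain that makes gp130 a receptor for oncostatin M, varied more than any other member between TAM libraries. WT TAM 1 to 4 held 13, 131, 247 and 224 normalized counts, and p110g-/- TAM held 4, 54, 226 and 120. The 4 counts of p110g-/- TAM 1 are close to what a few reads give at this depth. In each pair of the same number the p110g-/- library was lower, and between pairs the values spread over a far wider range than within them. That count depends on the numbering of libraries 3 and 4, since p110g-/- TAM 3 (226) was above WT TAM 4 (224). The log2 fold change was −0.94 (SE 1.33, limma adjusted p = 0.999), or with an SE of 0.25 and an adjusted p of 0.120 with the block. Without WT TAM 1 it was −1.89 (SE 1.19), without p110g-/- TAM 1 it was 0.19, and without both libraries numbered 1 it was −0.76 (SE 0.52). Osmr went with the fibroblast markers in these libraries. Their sum was 75.7, 782, 1439 and 1572 CPM in WT TAM 1 to 4 and 21.3, 254, 1205 and 791 in p110g-/- TAM, with all 8 markers at a lower mean in p110g-/-, 0 called and none at 0. The CPM of Osmr was 0.398% to 0.622% of that sum in all 8 TAM libraries. Most of the sum was 1 gene, Col3a1, with a mean of 801 CPM in WT TAM and 465 in p110g-/- TAM. The part of the fibroblast markers in the lower Osmr of p110g-/- TAM was not tested.

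**Figure D2:**
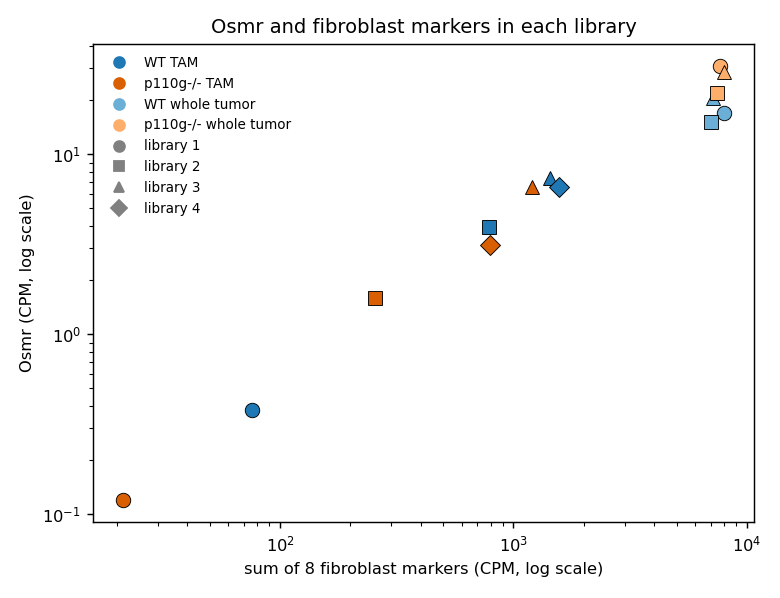
Osmr in CPM (vertical, log scale) against the sum of 8 fibroblast markers in CPM (horizontal, log scale), 1 point per library, with color for group and shape for library number. The 8 TAM libraries run from 21.3 to 1572 CPM of markers with Osmr at 0.398% to 0.622% of it, and the 3 p110g-/- tumors lie above the WT tumors at similar marker sums. Col3a1 makes up most of each sum.

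In tumors, the estimate for Osmr had the opposite sign. WT tumors held 464, 412 and 567 normalized counts, and p110g-/- tumors 845, 564 and 756. The groups overlapped only at 564 in p110g-/- against 567 in WT. The log2 fold change was 0.58 (SE 0.17, 95% interval 0.19 to 0.96, limma adjusted p = 0.0872). It was called with library weights (adjusted p = 0.0420), which called several times as many genes over all. The fibroblast markers summed to 6988 to 7961 CPM in WT and 7476 to 7956 in p110g-/- tumors (5 of 8 higher, 0 called). Osmr was 0.214% to 0.287% of that sum in WT and 0.291% to 0.406% in p110g-/-. Most of the sum was again Col3a1, with a mean of 5617 CPM in WT and 5831 in p110g-/-. Col1a2 ran from 122.5 to 258 CPM in WT and from 135 to 411 in p110g-/-, so similar sums do not mean that each marker was similar. The endothelial sum was 29.8 to 49.8 CPM in WT and 53.1 to 62.7 in p110g-/- tumors (6 of 6 higher, 0 called), and the carcinoma sum was 512 to 546 and 358 to 401 (3 of 3 tested lower, Krt8 and Krt18 called). None of these markers was at 0 in a tumor library, and their part in the Osmr values was not tested. The effect in TAM minus that in tumor was −1.52 for Osmr (SE 1.67, limma adjusted p = 1.00; −2.47 without WT TAM 1 and −0.39 without p110g-/- TAM 1), and with the block in TAM it had an SE of 0.32 and was called (adjusted p = 0.0340). It was the 1 member of 8 called in that fit, which called 3.26% of all genes. The ratio of Osm to Osmr normalized counts, a ratio of a ligand to its receptor chain not corrected for length, was 6.19, 10.6 and 9.90 in WT tumors and 2.37, 2.85 and 3.01 in p110g-/- tumors. Every p110g-/- tumor had the lower ratio. Osm was lower without overlap, and Osmr overlapped only at 564 against 567. The ratio thus largely restates these values and is no separate result.

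Stat3 (gene 20848), the transcription factor downstream of gp130, was similar between genotypes in TAM. WT TAM held 8311, 7468, 6222 and 5798 normalized counts and p110g-/- TAM 7959, 7012, 5987 and 5904. The values followed the library number closely in both genotypes, and the log2 fold change was −0.05 (SE 0.14, 95% interval −0.38 to 0.29). WT tumors held 3745, 3765 and 4037, and p110g-/- tumors 4762, 4248 and 4652. All p110g-/- tumors were above all WT tumors, and the log2 fold change of 0.24 (SE 0.06) missed the threshold (limma adjusted p = 0.0600). With libraries scaled to equal totals it was 0.29 and called (limma adjusted p = 0.0294). It was also called with library weights (0.0250), amid several times as many calls over all genes.

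Socs3 (gene 12702), the feedback inhibitor that STAT3 induces, was the member that separated the genotypes in TAM. WT TAM 1 to 4 held 14429, 11613, 7802 and 8500 normalized counts, and p110g-/- TAM held 17028, 16435, 14900 and 16456. Every p110g-/- library was above every WT library, and the WT values spread more than the p110g-/- values. The mean went from 10586 ± 3051 to 16205 ± 912 (SD, n = 4 each), with a log2 fold change of 0.66 (SE 0.19, 95% interval 0.23 to 1.09, limma adjusted p = 0.460, or 0.0549 with the block). Library weights, which called many more genes over all, gave 0.95 and a call (limma adjusted p = 0.00214). Set against the macrophage markers the log2 difference was 0.55, which reached the smallest p that 4 against 4 allow (exact two-sided permutation test, p = 0.0286, adjusted p = 0.4 over the 16 comparisons). Of those 10 markers, 2 were themselves called in TAM with the block, Cd14 higher (log2 fold change 1.81) and Fcgr1 lower (−0.66; limma adjusted p = 0.0621 and 0.824, or 0.0135 and 0.0103 with the block). The ratio of Socs3 to Stat3 normalized counts was 1.74, 1.56, 1.25 and 1.47 in WT TAM and 2.14, 2.34, 2.49 and 2.79 in p110g-/- TAM, again without overlap. Since Stat3 was similar between genotypes in TAM, this ratio largely restates the Socs3 values and is no separate result. Immediate-early genes, which also respond to cell dissociation, separated the same libraries: their sum was 1907 to 3259 CPM in WT TAM and 3343 to 5211 in p110g-/- TAM, with 10 of 10 genes higher, 0 called without the block and 5 with it (Fos, Fosb, Egr1, Dusp1 and Ier2). Their part in the Socs3 values was not tested. The mitochondrial share, 2.51% to 9.59% in WT TAM and 2.73% to 14.4% in p110g-/- TAM, overlapped between genotypes. It was higher in p110g-/- in all 4 same-numbered pairs (2.51% and 2.73%, 3.06% and 3.21%, 7.70% and 9.01%, 9.59% and 14.4%). This too depends on the numbering, since WT TAM 4 (9.59%) was above p110g-/- TAM 3 (9.01%). The part of the mitochondrial share in the Socs3 values was not tested either.

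In tumors, Socs3 did not separate. WT tumors held 4459, 5832 and 6844 normalized counts, and p110g-/- tumors 5744, 4480 and 5183. Each p110g-/- tumor lay inside the WT range (log2 fold change −0.14, SE 0.15, limma adjusted p = 0.606). The effect in TAM minus that in tumor was 0.80 (SE 0.28, 95% interval 0.19 to 1.41, limma adjusted p = 0.517, or 0.0915 with the block in TAM). With library weights, and the many more calls they gave over all genes, it was 1.21 and called (adjusted p = 0.00204).

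The Socs3 promoter is shown because STAT3 acts on this gene directly. Its 250 bases before the start site lie at chr11:117969367-117969616, minus strand, in RefSeq (GRCm38.p6), and are printed 5′ to 3′ with the STAT match in capitals.
Socs3 promoter: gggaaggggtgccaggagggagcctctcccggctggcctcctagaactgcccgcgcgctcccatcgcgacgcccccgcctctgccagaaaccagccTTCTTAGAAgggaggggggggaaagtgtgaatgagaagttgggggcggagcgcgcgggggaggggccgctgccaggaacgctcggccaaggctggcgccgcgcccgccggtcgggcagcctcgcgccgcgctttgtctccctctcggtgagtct
The match has the letters TTCNNNGAA, a pattern that matches on both strands, and starts at −154. These letters were in 8.33% of the 32544 promoters, and the stricter TTCCNGGAA, in 1.16% of promoters, was not in that of Socs3. Promoters were matched for 7 of the 8 genes. Osmr held an AP-1 match just after its start site, and Il6ra, Il6st and Stat3 held none of the motifs searched, which included the CRE letters TGACGTCA (1.80% of promoters).

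**Figure D3:**
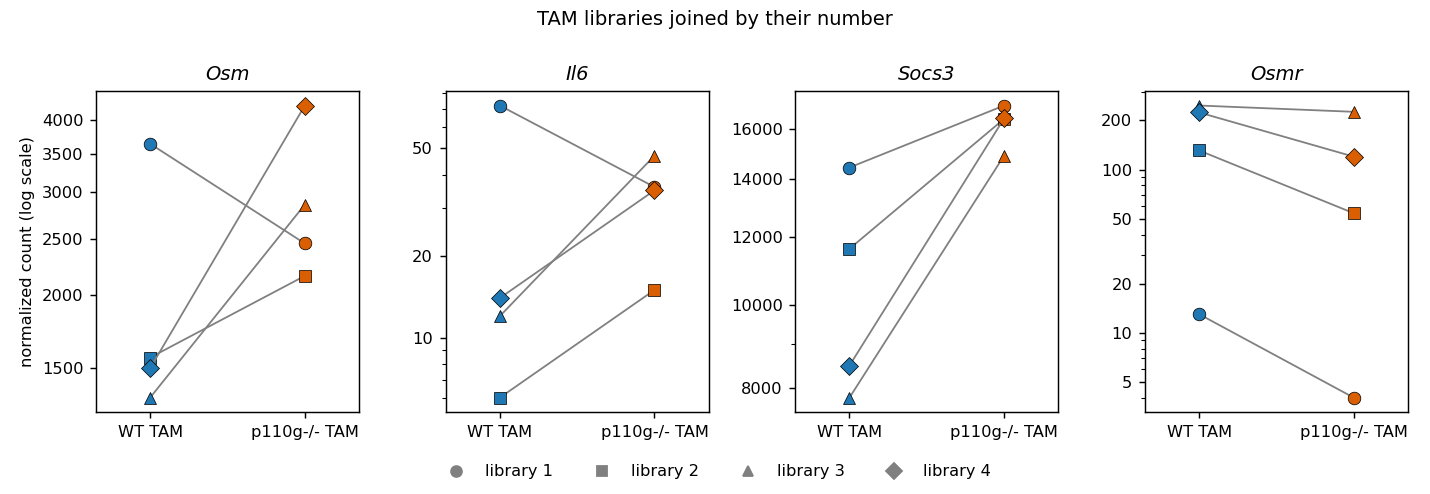
Normalized counts (log scale, own axis per panel) of Osm, Il6, Socs3 and Osmr in WT and p110g-/- TAM, with lines joining libraries of the same number. Osm and Il6 are higher in p110g-/- in pairs 2, 3 and 4 and lower in pair 1, Socs3 is higher in 4 of 4 pairs and Osmr is lower in 4 of 4.

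**Figure D4:**
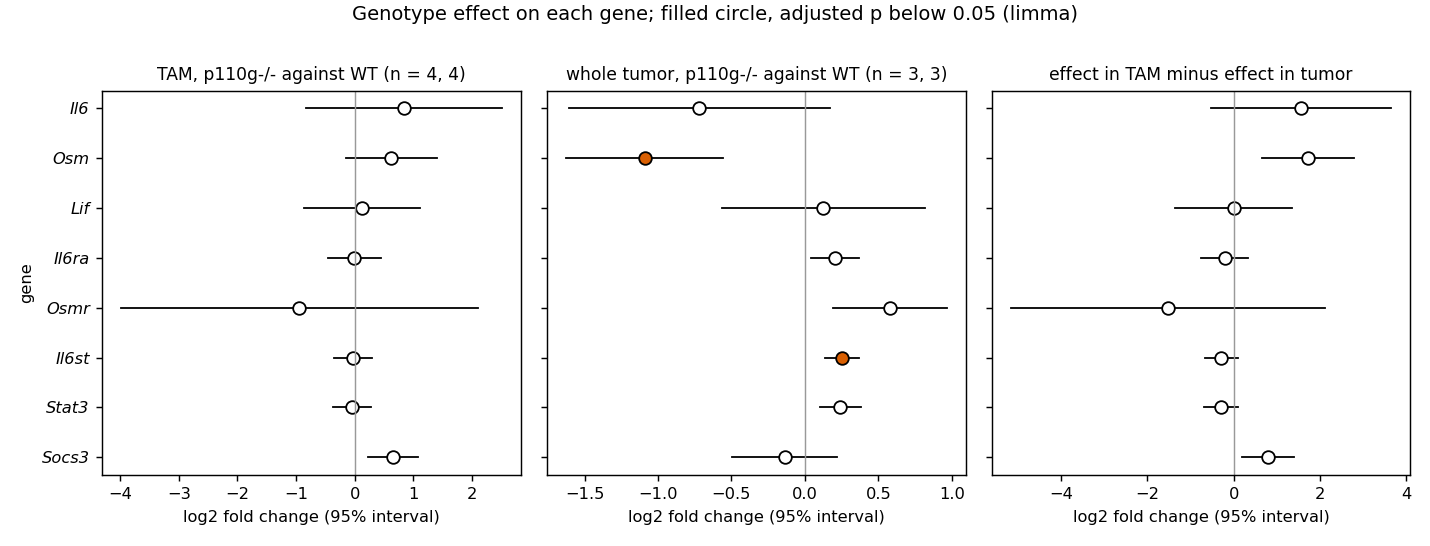
Log2 fold change (circle) and 95% interval (line) of each gene for p110g-/- against WT in TAM (n = 4 each) and in whole tumor (n = 3 each), and for the difference of the effects over 14 libraries; the horizontal axes differ between panels. Filled circles, Osm at −1.09 and Il6st at 0.25 in tumors, have a limma adjusted p below 0.05, and Osmr in TAM has the widest interval, −3.98 to 2.10.

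Levels of different genes were compared per length, as CPM per kilobase of exon (GENCODE M21). In WT tumors Socs3 was highest at 81.7 ± 16.7 (SD, n = 3), followed by Osm at 68.9 ± 21.7, whose libraries overlapped with those of Socs3. Stat3 (22.6 ± 0.80), Il6st (12.2 ± 0.52) and Il6ra (7.28 ± 0.21) followed with no overlap between neighbours, then Lif (4.88 ± 1.15), Osmr (3.20 ± 0.50) and Il6 (1.67 ± 0.55). In p110g-/- tumors the order of the 8 was the same, but Osm, at 32.5 ± 5.21 CPM per kilobase, overlapped with Stat3 at 27.5 ± 1.03, as did Lif with Il6ra and with Osmr. In WT TAM the order was Socs3 (123 ± 34.1, n = 4), Stat3 (33.1 ± 5.24), Osm (26.1 ± 13.8), Il6ra (16.9 ± 3.32), Il6st (5.86 ± 0.20), Lif (1.29 ± 0.44), Osmr (0.834 ± 0.58) and Il6 (0.314 ± 0.37). Osm overlapped there with both of its neighbours, and Lif, Osmr and Il6 overlapped with each other. In p110g-/- TAM, Osm (36.4 ± 9.05, n = 4) came before Stat3 (31.0 ± 5.85), with overlap, after Socs3 at 182 ± 14.9, and the order of the other 5 was as in WT TAM. Of the ligands, Osm thus had the highest level per length in every group.

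Set beside the tumors as a share of each library's total, 3 kinds of pattern were seen, with no test since the tables were normalized separately. Il6ra, Stat3 and Socs3 took a larger share in TAM than in tumor in both genotypes. Their ratios were 2.32, 1.46 and 1.50 in WT and 1.90, 1.12 and 2.40 in p110g-/-. Il6, Lif, Osmr and Il6st took a smaller share in both. Their ratios were 0.188, 0.264, 0.261 and 0.480 in WT and 0.362, 0.248, 0.105 and 0.373 in p110g-/-. For Osm the ratio of TAM to tumor was 0.378 in WT (59.2 against 157 CPM) and 1.12 in p110g-/- (82.6 against 73.8 CPM), the 1 gene of the 8 whose ratio crossed 1 between genotypes. In p110g-/- the Osm libraries overlapped between TAM (63.2 to 111 CPM) and tumors (62.1 to 85.7 CPM). Those of Stat3 overlapped too (155 to 238 and 164 to 176 CPM).

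The rest of the pathway was read from lists of 57 genes, of which 52 were measured. In TAM 51 were tested, 25 with a higher and 26 with a lower estimate in p110g-/-, and none was called by limma (4 had an unadjusted p under 0.05, Il1rn, Il27ra, Junb and Zfp36, beside 5.87% of all genes). Their median log2 fold change was −0.01, as was that of all genes tested. With the block 1 of the 51 was called, beside 2.5% of all genes. It was Zfp36, which encodes tristetraprolin, a protein that destabilizes cytokine mRNA such as that of Il6. Zfp36 held 24686, 25922, 14287 and 16155 normalized counts in WT TAM and 43543, 35150, 25784 and 30865 in p110g-/- TAM. It was higher in 4 of 4 pairs, and the lowest p110g-/- value lay just under the highest WT value (log2 fold change 0.76, SE 0.24, limma adjusted p = 0.554, or 0.0120 with the block). The immediate-early sum given beside Socs3 was also higher in every p110g-/- TAM library, and its part in the Zfp36 values was not tested. In tumors 52 were tested, 37 with a higher and 15 with a lower estimate. Of the 52, 4 were called, all of them higher, beside 4.35% of all genes. An unadjusted p under 0.05 was seen for 17, beside 26.2% of all genes. The median log2 fold change of the 52 was 0.13, beside 0.01 for all genes tested.

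Of those 4, 3 are described here. Hp, encoding the acute-phase protein haptoglobin, went from 433 ± 36.1 to 767 ± 146 (SD, n = 3 each, log2 fold change 0.81, limma adjusted p = 0.0293). It was the 1 called gene among 23 STAT3 and gp130 target genes tested in tumors, beside 4.35% of all genes. That count is near the share of all genes and is no result about the list. Of the 23, 17 had a higher estimate. In TAM 22 of that list were tested, 13 had a higher estimate and none was called. Clcf1, a ligand of the family that signals through gp130 and Lifr, went from 410 ± 24.8 to 563 ± 45.6 in tumors (0.45, limma adjusted p = 0.0345). Rc3h1, which encodes roquin-1, another protein that limits cytokine mRNA, went from 1188 ± 7.0 to 1448 ± 32.3 (0.29, limma adjusted p = 0.0275). Leaving out 1 tumor library at a time lost the call for Hp in 4 of 6 cases and for Clcf1 and Rc3h1 in 5 of 6 each, with no change of direction, and fits with no trend or over all 14 libraries called none of these 3. In the same tumors 4 of 7 T cell markers rose, Krt8 and Krt18 of the carcinoma markers fell, and the 4 measured mast cell markers were higher (19.7 to 25.0 CPM in WT and 21.7 to 50.6 in p110g-/-), Kit called. The part of these cells and of the endothelial markers in the changes of the pathway genes was not tested.

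**Figure D5:**
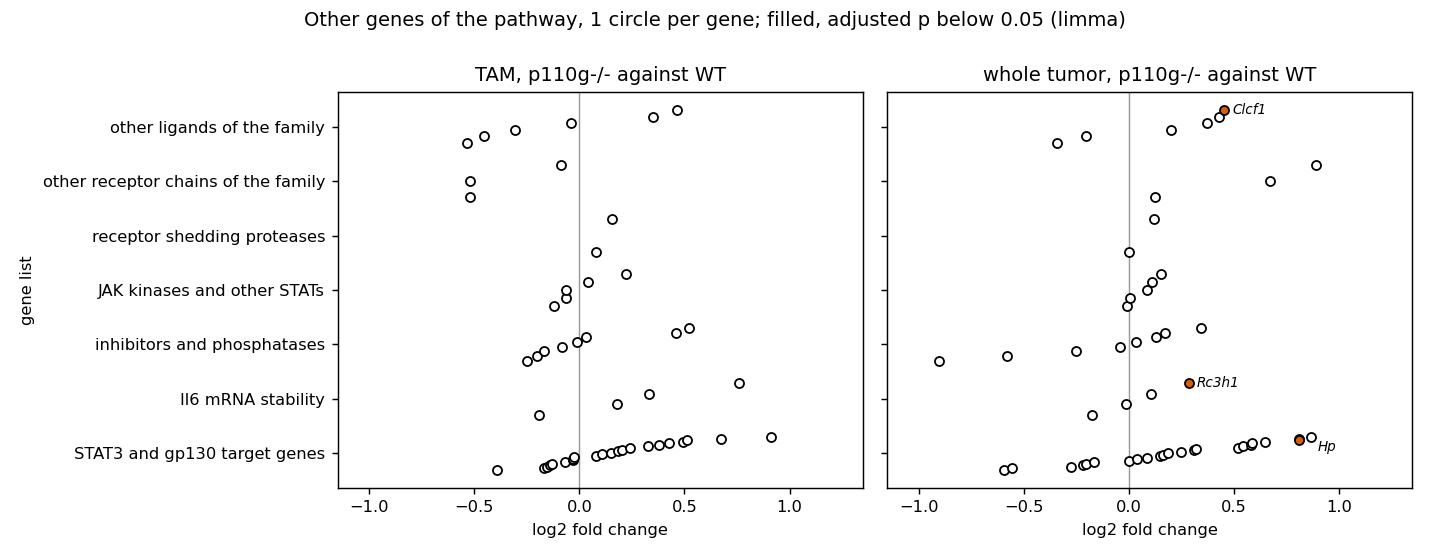
Log2 fold change of the measured genes of 7 lists of the pathway, 1 gene left out, in TAM (left) and whole tumor (right), p110g-/- against WT, with 1 circle per gene and filled circles for a limma adjusted p below 0.05. The 3 filled circles, Clcf1, Rc3h1 and Hp, are all in tumors and all to the right of 0, and in TAM none is filled.

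Other receptor chains and inhibitors had large estimates that did not pass. In tumors, Lifr, the receptor chain for LIF, held 59, 79 and 107 normalized counts in the WT libraries and 119, 112 and 154 in the others (log2 fold change 0.67, limma adjusted p = 0.124). Il27ra, the chain that binds IL-27 together with gp130, held 57.0 ± 22.3 in WT and 101 ± 13.1 in p110g-/- tumors (0.89, limma adjusted p = 0.121) and 167 ± 19.7 and 116 ± 15.1 in WT and p110g-/- TAM (−0.52, limma adjusted p = 0.612). Both chains thus had estimates of opposite sign in the 2 tables, Lifr with −0.52 in TAM, and for neither was the difference of the effects called. Lifr in TAM held 1138, 1317, 878 and 930 normalized counts in WT and 1424, 543, 616 and 605 in p110g-/-, and without p110g-/- TAM 1, the highest library, the estimate was −0.84 (limma adjusted p = 0.145). With 1 tumor library left out, the estimates in tumors ran from 0.46 to 0.89 for Lifr and from 0.53 to 1.13 for Il27ra. Adam10 and Adam17, proteases that shed the IL-6 receptor, had small estimates, with log2 fold changes of 0.08 and 0.15 in TAM and 0.0012 and 0.12 in tumors. Of the inhibitors, Cish and Socs2, SOCS family genes driven mainly by STAT5, had the largest estimates in both tables: 0.52 and 0.46 in TAM and −0.90 and −0.58 in tumors (limma adjusted p = 0.999 and 0.999, 0.199 and 0.146). In TAM they had the same odd pair as Osm and Il6. Cish held 907, 309, 228 and 258 normalized counts in WT TAM and 160, 794, 668 and 825 in p110g-/- TAM, and Socs2 held 421, 126, 131 and 162 and 103, 395, 285 and 347. Both were higher in p110g-/- in pairs 2, 3 and 4 and lower in pair 1. Without WT TAM 1 the estimates in TAM were 0.97 for Cish and 0.86 for Socs2 (limma adjusted p = 0.672 and 0.636), and without p110g-/- TAM 1 they were 1.08 and 0.89 (0.726 and 0.817). In tumors they ran from −1.30 to −0.46 and from −0.75 to −0.43 with 1 library left out. Vegfa and Il1rn, the targets with the largest estimates in TAM, had log2 fold changes of 0.91 and 0.67 (limma adjusted p = 0.999 and 0.564). Vegfa held 14636 normalized counts in WT TAM 1 and 2600 to 3595 in the other WT TAM libraries, and without WT TAM 1 its estimate was 1.49 (limma adjusted p = 0.231).

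The genes whose pattern over the 14 libraries was most like a member's were found by the root mean square (RMS) difference of log2 deviations from the table mean. The nearest to Osm were Cd80 (0.26), Cebpb (0.27) and Egr2 (0.32), where the deviations of Osm itself had an RMS of 0.60. The nearest to Socs3 were Pim1 (0.15), Zfp36 (0.16) and Csrnp1 (0.17), against 0.35 for Socs3 itself. Those to Lif were Phlda1 (0.27), Gpnmb (0.27) and Snhg11 (0.32), against 0.53, and those to Il6 were Ackr3 (0.40), Thbs1 (0.41) and Rab44 (0.43), against 0.90. All 14 libraries enter these values, the genotype effect included, and 11335 or 11336 genes were compared.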

How the data were processed

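RNA of 14 libraries was sequenced. The submitters' processing notes name Bowtie2, DESeq and the build mm9. Versions, gene counter and annotation were not given in the sources used here. In all, the authors deposited 2 tables, TAM and whole tumor, whose values are a score: gene counts scaled by 1 factor per library and rounded, as read from the values, and called normalized counts. Reads per library were estimated from the steps between values, a method tested on simulated data (14 of 14 libraries within 1%). A further deposited column per table, headed pp, was not used.

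As raw counts were lacking, limma 3.58.1 with a trend (R 4.3.3) was fitted to log2(normalized count + 1), over genes with at least 10 normalized counts in a number of libraries equal to the smaller group (4 TAM, 3 tumor). Tests were two-sided, p-values were adjusted by Benjamini-Hochberg over all genes tested, and called means an adjusted p under 0.05. The planned count model was not run. The difference of effects used all 14 libraries with a term for the table. CPM is the normalized count per 1000000 of its library's total. Alternatives changed the pseudocount, filter, scaling, library weights, trend, libraries and block.

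The labels number the TAM libraries 1 to 4 in both genotypes without saying what a number marks. Same-numbered libraries deviated together from the means of their groups, with correlations of 0.847, 0.472, 0.808 and 0.702 over 12475 genes, so the numbers were taken to pair them, and the block value stands where it changes a call or a count. Number 4 correlated about as well with number 3, so the pairing is coarse. WT library 4 had a correlation of 0.777 with p110g-/- library 3 and 0.702 with p110g-/- library 4. Counts of pairs and results with the block thus depend on the numbers as given.

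The members and lists were chosen with earlier results of these data known. Named were the members, called pathway genes and the 2 largest estimates per list with a mean CPM of at least 1. Lengths were exon unions of GENCODE M21 and promoters came from RefSeq GRCm38.p6, both of another build than the counts, so sequence was matched by symbol only. Reads of overlapping or antisense genes cannot be told apart, since strand is not given. Of the pathway genes, 1 is counted in the lists but is not reported here.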

Additional observations from a re-analysis of the deposited data

Results flagged for a closer look

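In groups of 4 TAM libraries, a library was picked out by Dixon's test on normalized counts. Its gap to the nearest other, divided by the range of the group, had to exceed the 95% critical value. This was so in 13 of 56 groups of named genes, and 8 of the 13 were WT TAM library 1. Chance gives about 1 in 20 for independent groups. These groups reuse the same libraries, and some genes were named for large estimates, so that rate is only a rough guide. That library was high in Il6 (72 normalized counts), Osm (3638), Cish (907), Hp (623), Il27 (171), Socs2 (421), Vegfa (14636) and Zc3h12a (2921). Library 1 of p110g-/- TAM was high in Fgl2 (2571), Hp (631) and Lifr (1424) and low in Serpina3n (2, where no TAM library exceeded 8). WT TAM library 2 was high in Adam17 (9984).

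The genotype effect on Osmr differed between TAM and whole tumor (TAM minus tumor, log2 difference −1.52) in the fit with the block in TAM (limma adjusted p = 0.0340), a setting chosen after seeing the data, and not without the block (1.00).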

How the results depend on the processing

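Of 932 recomputed fold changes of named genes, 830 kept their direction and side of the threshold, 40 lost a call, 33 gained one and 29 changed sign. The cause was not tested. Library weights raised the calls in TAM from 14 to 999 genes, with 3 members (Il6, Osm, Socs3) and 15 pathway genes. In tumors the weights raised them from 553 to 2308 genes, with 6 members and 8 pathway genes. For the difference of effects they raised the calls from 18 to 1249 genes, with 3 members. They turned Il6st in TAM (0.059), Lif in tumors (−0.22) and the difference for Lif (0.50). The fit over all 14 libraries called 88 genes in TAM and 15 in tumors, with 0 members and 0 pathway genes in tumors. Without a trend, tumors had 131 calls, 0 members and 0 pathway genes. Median-of-ratios scaling turned Adam10 in tumors (−0.0019) and the difference for Lif (0.0023).

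With the replicate number as a block, TAM had 312 calls and 1 pathway gene. The difference of effects had 327 calls and 1 member with blocks in both tables, and 404 and 1 with the block in TAM only. Tumor numbers do not pair the samples (correlations 0.0947, 0.0763 and 0.178). There the block gave 759 calls and 3 members, Osmr gaining a call (adjusted p = 0.0401), and Clcf1 lost its call (0.0514) while Icam1 gained one (0.0134). Without both TAM libraries numbered 1, chosen after seeing the data, 133 genes, 0 members and 4 pathway genes were called in TAM.

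Leaving out 1 library at a time gave 3 to 40 calls in TAM, 29 to 2001 in tumors and 0 to 101 for the difference. Member calls were 0 to 0, 0 to 4 and 0 to 1, and pathway calls were 0 to 0 in TAM and 0 to 8 in tumors. The largest tumor counts (2001 genes, 4 members, 8 pathway genes) came without p110g-/- tumor 1. Signs changed for Il6ra (−0.15 to 0.094), Il6st (−0.14 to 0.10), Lif (−0.15 to 0.44), Stat3 (−0.13 to 0.045) and Osmr (−1.89 to 0.19) in TAM. They changed for Lif (−0.22 to 0.37), Socs3 (−0.31 to 0.0028) and Adam10 (−0.044 to 0.049) in tumors, and for Lif in the difference (−0.27 to 0.35).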
